A study of Dugesia japonica with 4 samples.

Results

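The features described here are the cell death, TRAF and lectin transcripts of planarian heads, chosen by the words in their protein names. Of 15857 assembled features in the deposited tables, 7973 carried a protein name, and 48 of these names contained one of the searched words: caspase, Bcl-2, Bax, apoptosis, apoptotic, programmed cell death, BIRC, TNF receptor-associated, TRAF, tumor necrosis factor, lipopolysaccharide-induced, lysozyme, peptidoglycan, lectin or scavenger receptor. No name contained Bcl-2, BIRC, lysozyme, peptidoglycan or scavenger receptor. The search went by letters, and 18 of the 48 were found only because "traf" stands inside trafficking, traffic or intraflagellar. The other 30 are named for cell death, TRAF, TNF or lectins, and the 18 transport features are described separately at the end.

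The worm is Dugesia japonica, a freshwater flatworm that regrows its head. The BaCl2 group consisted of heads amputated from worms kept for 35 days in 1 mM BaCl2, by which time heads insensitive to the salt had regrown. The control group consisted of heads of wild-type worms, for which the labels give neither an exposure nor a regrowth, so barium and regrowth cannot be told apart. Each group had 2 libraries of poly(A) RNA from 25 worms each, called biological replicates, and whether these came from separate cultures is not stated. The study's design text names starved worms, and it names more replicates per treatment than the 2 libraries available here. The p-values below measure the spread between these libraries. Because the RNA came from whole heads, fewer cells of a type and less RNA per cell cannot be told apart.

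Caspases are proteases that cut other proteins to carry out apoptosis, the orderly death of a cell. Bcl-2 family proteins such as Bax act before them at the mitochondrion, and inhibitors of apoptosis (IAP proteins) bind caspases or tag proteins with ubiquitin to hold death in check. TRAF proteins are adaptors that, in mammals, carry signals from TNF and Toll-type receptors towards NF-kappaB and stress kinases. Lectins bind sugars, and many animals use secreted lectins against microbes. In planarians apoptosis accompanies regeneration, since tissue is reshaped as missing parts are replaced.

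Levels are given in FPKM, fragments scaled to transcript length and to the number of mapped fragments, with the 4 libraries on one scale. Sums over several features are given in CPM, fragments per 1000000 fragments of the library. These scales differ. Over 7981 features the median log2 fold of BaCl2 over control was 0.03 on library totals and -0.16 on the FPKM scale (both voom). CPM sums therefore stand higher in BaCl2 heads, relative to control heads, than FPKM values do. The libraries held 3395486 and 6875676 fragments in BaCl2 heads and 5901128 and 8304682 fragments in control heads, as worked out from the deposited values. Across features, log2(FPKM + 1) correlated at 0.934 between the BaCl2 libraries, at 0.977 between the control libraries and at 0.892 to 0.903 between groups. Neuronal markers were present in all 4 libraries. The 4 features named Choline O-acetyltransferase, an enzyme of cholinergic neurons, summed to 40.3 and 35.5 CPM in BaCl2 heads, against 28.3 and 27.3 in control heads. No feature was named tyrosinase, and none opsin in a search that left out names containing rhodopsin, so eye cells were not checked by those markers.

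All 48 features had a value in every library, from 12 to 15358 fragments over the 4 libraries. The 34 features with at least 100 fragments, all of which averaged 1 FPKM or more, entered the test, a limma fit of log2(FPKM + 1) over all 7981 features of that depth. The other 14 had 12 to 95 fragments and are given by their fragments or ranges. Transcript lengths ran from 41 to 2601 nt with a median of 478 nt, against 332 nt for all features, and 5 of the 48 were shorter than 200 nt, where FPKM swings widely with a few fragments. The names come from the best-matching flatworm protein, which was a planarian one for 8 features and one of a fluke or tapeworm for 40. The 48 features lay on 34 contigs, 8 of which carried several features of the same name.

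One of the 34 tested features changed at an adjusted p under 0.05 (limma, Benjamini-Hochberg over 7981 features), a C-type lectin that fell in BaCl2 heads. Across all features, 1.23% were called lower and 0.200% higher at that threshold, 1.43% in either direction, so a single call among 34 is close to the share among all features. No caspase, IAP, TRAF or TNF-related feature passed. At an unadjusted p under 0.05 there were 6 of 34, against 18.8% of all features. The 34 log2 folds of BaCl2 over control divided into 17 above and 17 below 0, with a median of -0.01 beside -0.15 over all 7981 features. Of all features, 3118 were above and 4863 below 0. With median-ratio rescaling 21 of the 34 were above and 13 below, beside 4043 and 3938 of all features. With voom on library totals 22 were above and 12 below, beside 4191 and 3790. In 9 features both BaCl2 libraries lay above both control libraries, and in 10 both lay below, which is 26.5% and 29.4% of the 34 beside 19.1% and 36.3% of all features.

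**Figure D1:**
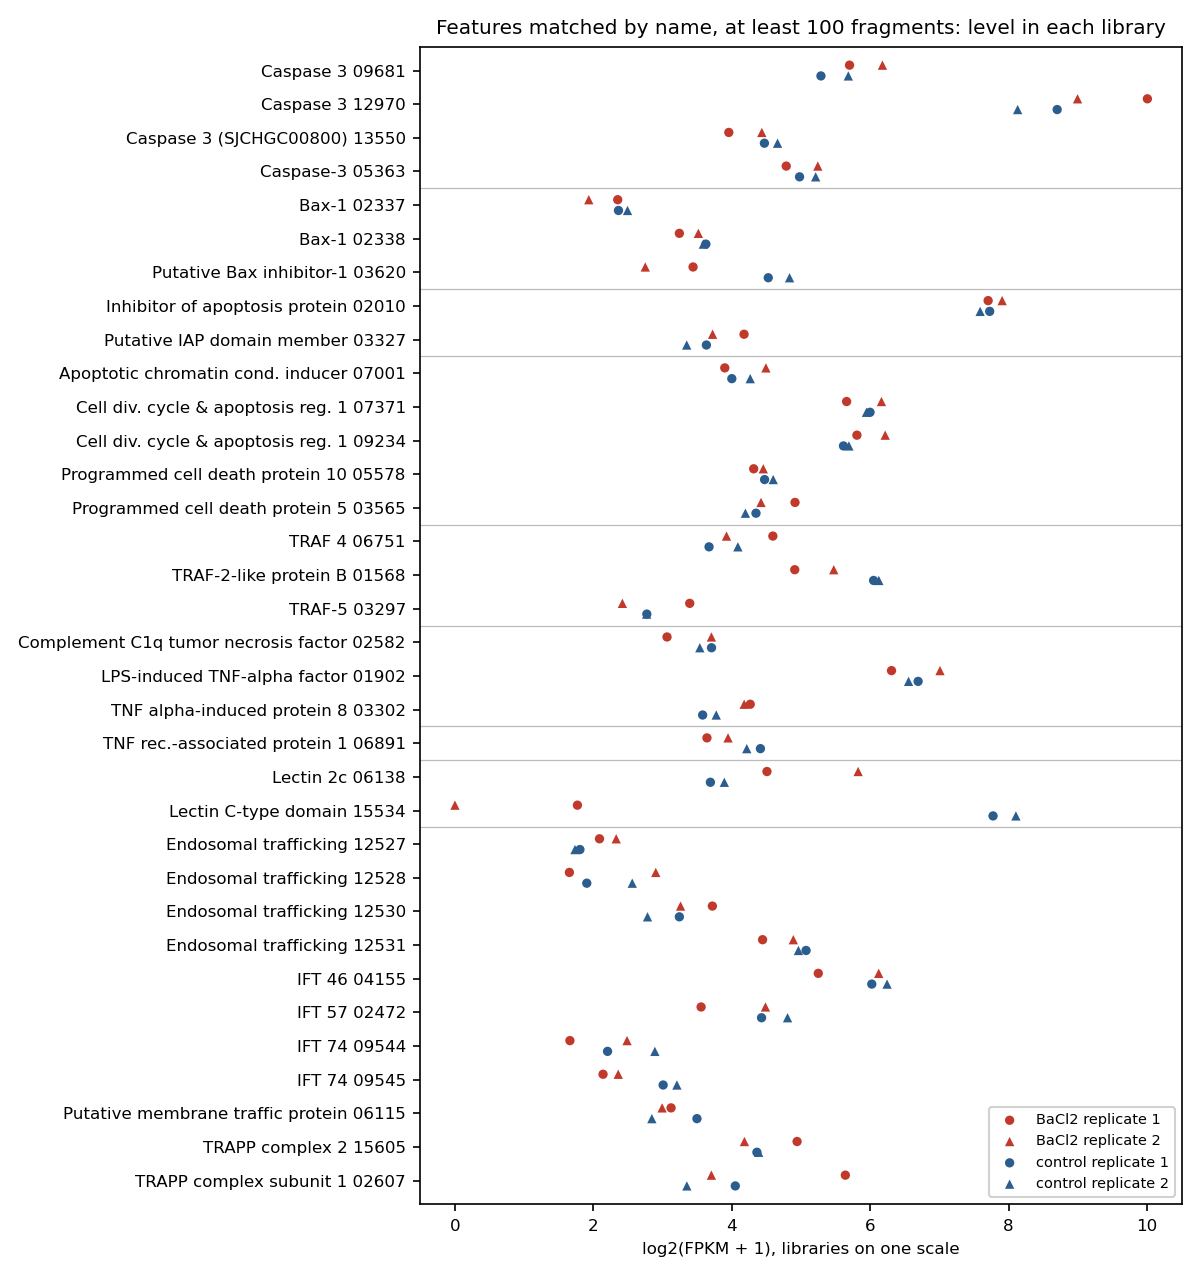
The horizontal axis gives log2(FPKM + 1) for each of the 34 features with at least 100 fragments, with BaCl2 libraries in red above control libraries in blue, circles for replicate 1 and triangles for replicate 2. Horizontal lines separate the role classes, and the end of each name is the end of the feature's identifier. For most features the red and blue points lie close together or interleave, while the C-type lectin stands at 0 to 2.41 FPKM in BaCl2 heads against 218 and 275 FPKM in control heads.

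The lectins held both the lowest and the highest log2 fold of the 34 tested features. A transcript with a C-type lectin domain (TCONS_00015534, 232 nt), the kind of domain that binds sugars with the help of calcium, was almost absent from BaCl2 heads. Lectin 2c was higher in both BaCl2 libraries, and Lectin 2b was lower in both, on few fragments.

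The C-type lectin had 2.41 and 0 FPKM in BaCl2 heads, against 218 and 275 FPKM in control heads. These values rest on 2 and 0 fragments in the BaCl2 libraries, against 236 and 457 in the control libraries. Both BaCl2 libraries were at or near 0 and both control libraries were high. In control heads it had the highest mean of the 33 tested features of at least 200 nt, 246 ± 39.9 FPKM (SD, n = 2), and in BaCl2 heads the lowest, 1.2 ± 1.7 FPKM (SD, n = 2). Summed over the libraries of each group and scaled to their deposited depth, the fragments were 281 times as many in control heads as in BaCl2 heads, with an exact 95% interval of 77.5 to 2326 that covers counting error only.

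In the limma fit the C-type lectin fell by 7.06 on the log2(FPKM + 1) scale (SE 0.56, adjusted p 0.00352). Only 9 of the 7981 features, itself included, had a log2 fold that low or lower. It passed the minimum depth through the control libraries alone. The call was lost with a pseudocount of 0.1 in place of 1 (adjusted p 0.0761). It was also lost in the limma fit without a minimum of fragments, which took in 15530 features that averaged 1 FPKM or more (adjusted p 0.121). In that fit none of the 47 matched features was called, beside 0.129% of all features, 0.045% higher and 0.084% lower. The authors' deposited table gives this feature a log2 fold of -7.68 with a q-value of 0.557.

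Lectin 2c (TCONS_00006138, 1546 nt) had 21.8 and 55.7 FPKM in BaCl2 heads, against 11.9 and 13.9 FPKM in control heads. Both BaCl2 libraries lay above both control libraries, but they differed from each other by more than the control libraries did. The group means were 38.8 ± 24 FPKM in BaCl2 heads and 12.9 ± 1.37 FPKM in control heads (SD, n = 2 each). Its log2 fold of 1.38 (SE 0.45) did not pass in limma (adjusted p 0.189), while the authors' deposited table gives a q-value of 0.00428, one of 2 under 0.05 among the 48, beside 3.43% of all features in that table. Over omissions of 1 library the log2 fold ran from 0.72 to 2.03.

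Lectin 2b (TCONS_00007820, 365 nt) had too few fragments for the test. It had 0 and 7 fragments in BaCl2 heads, against 19 and 33 in control heads, which is 0 and 1.48 FPKM against 5.18 and 5.85 FPKM. The groups did not overlap, and the depth-scaled fragments were 6.03 times as many in control heads, with an exact 95% counting interval of 2.73 to 15.7. Both galectin features, short pieces of 122 and 178 nt named for the domain that binds galactose-containing sugars, had 14 and 20 fragments in all. Their fragments were spread over both groups, with 9 in BaCl2 heads and 25 in control heads, all 25 of them in control replicate 2. Over the 5 lectin features the summed level was 151 and 317 CPM in BaCl2 heads, against 104 and 139 in control heads, with most of it from Lectin 2c.

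**Figure D2:**
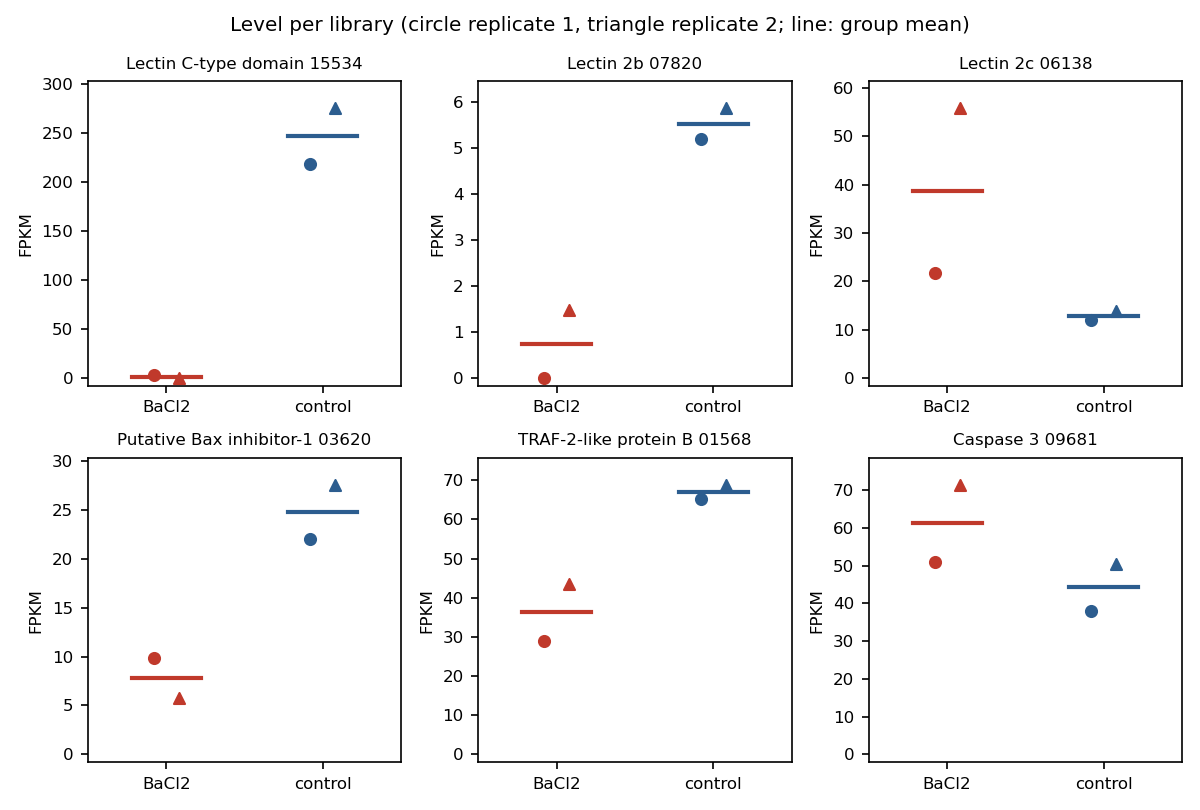
Each panel gives the FPKM of 1 feature in every library, BaCl2 in red at the left and control in blue at the right, with circles for replicate 1, triangles for replicate 2 and a line at the group mean. The C-type lectin, Lectin 2b, Bax inhibitor-1 and TRAF-2-like protein B were lower in both BaCl2 libraries, and Lectin 2c and one Caspase 3 feature were higher in both, with only the C-type lectin past the adjusted threshold.

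Of the caspases, 6 features were found, 5 named for caspase-3, an executioner caspase, and 1 for caspase-8, which starts the cascade from death receptors in mammals. The caspase-3 features did not move together. None of the 4 with enough fragments passed the test, and 2 had folds above 0 and 2 below. Their pieces lie on separate contigs, and the tables do not say whether they are parts of 1 gene or several.

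The Caspase 3 feature TCONS_00009681 (490 nt) had 51.1 and 71.4 FPKM in BaCl2 heads, against 38.1 and 50.4 FPKM in control heads. Its BaCl2 libraries were both higher, by a narrow margin, and the log2 fold of 0.45 (SE 0.31) did not pass (limma adjusted p 0.450). The feature TCONS_00013550 (642 nt) had 14.5 and 20.6 FPKM in BaCl2 heads, against 21.2 and 24.3 FPKM in control heads, a log2 fold of -0.37 (SE 0.28). Here both BaCl2 libraries were lower, though the higher of them came within a small step of the lower control library. The longest caspase piece, TCONS_00005363 (840 nt), had 26.6 and 36.9 FPKM in BaCl2 heads, against 30.6 and 36.1 FPKM in control heads. The libraries of the groups interleaved, and the 95% interval of its log2 fold ran from -0.78 to 0.61.

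The short feature TCONS_00012970 (105 nt) stood at 1027 and 510 FPKM in BaCl2 heads, against 416 and 279 FPKM in control heads, values inflated by its length and resting on 55 and 46 fragments against 29 and 30. Its log2 fold of 1.08 (SE 0.44) had an unadjusted p of 0.0454 and an adjusted p of 0.256 (limma). Over omissions of 1 library the log2 fold ran from 0.58 to 1.59. A last caspase-3 feature, TCONS_00013475, had 12 fragments, 7 and 4 in BaCl2 heads against 0 and 1 in control heads. The depth-scaled ratio was 13.6, with an exact 95% counting interval of 1.97 to 583. Caspase-8 was a piece of 41 nt with 16 fragments, 1 and 10 in BaCl2 heads and 4 and 1 in control heads, too few to order the groups. The summed caspase level was 211 and 233 CPM in BaCl2 heads, against 157 and 204 in control heads. The CPM scale sets BaCl2 heads higher than the FPKM scale does.

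Among the proteins around Bax, a Bax inhibitor-1 feature stood lower in BaCl2 heads without passing the adjusted threshold, and the features named Bax-1 differed little. Bax inhibitor-1 is a membrane protein of the endoplasmic reticulum that, in mammals, protects cells from Bax-driven death. Its longer feature (TCONS_00003620, 485 nt) had 9.86 and 5.73 FPKM in BaCl2 heads, against 22.1 and 27.6 FPKM in control heads. The groups were well apart, at 7.79 ± 2.92 FPKM in BaCl2 heads and 24.8 ± 3.88 FPKM in control heads (SD, n = 2 each). The log2 fold was -1.59 (SE 0.32), with an unadjusted p of 0.00207 and an adjusted p of 0.0856 (limma). Among fits of all 4 libraries, the feature passed with a minimum of 300 fragments (limma adjusted p 0.0255), where 174 of 5177 features were called. It passed with voom on the deposited scale (adjusted p 0.0307, 204 of 7981 called). It also passed with the replicate number as a block (limma adjusted p 4.57e-05, 948 of 7981 called), a pairing the labels do not state. The other fits of all 4 libraries did not call it, with adjusted p up to 0.170. Over omissions of 1 library its log2 fold ran from -1.93 to -1.24. The authors' deposited table gives a q-value of 0.0181. A second Bax inhibitor-1 feature on the same contig is 62 nt long and had 30 fragments, 11 and 0 in BaCl2 heads and 5 and 14 in control heads.

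The features named Bax-1 (TCONS_00002338, 717 nt, and TCONS_00002337, 471 nt) lay on 1 contig, and the tables do not say whether the protein is Bax itself. The longer one had 8.47 and 10.5 FPKM in BaCl2 heads, against 11.3 and 11.0 FPKM in control heads. The shorter one had 4.11 and 2.82 FPKM in BaCl2 heads, against 4.14 and 4.63 FPKM in control heads. Both were slightly lower in every BaCl2 library, with log2 folds of -0.23 (SE 0.25) and -0.29 (SE 0.28) that did not pass (limma adjusted p 0.634 and 0.590).

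Both IAP features had folds above 0, and neither passed. The Inhibitor of apoptosis protein (TCONS_00002010, 680 nt) was the most abundant tested feature of at least 200 nt in BaCl2 heads, at 208 and 239 FPKM, against 211 and 192 FPKM in control heads. These groups overlapped, with a 95% interval of the log2 fold from -0.55 to 0.84. The second, a putative IAP domain family member (TCONS_00003327, 855 nt), had 17.1 and 12.2 FPKM in BaCl2 heads, against 11.4 and 9.19 FPKM in control heads. Its log2 fold was 0.46 (SE 0.28), and the lower BaCl2 library stood just above the higher control library. The summed level of the pair was 559 and 515 CPM in BaCl2 heads, against 411 and 405 in control heads. That gap is partly one of scale. In CPM the first feature had 503 and 482 in BaCl2 heads against 383 and 380 in control heads, while its FPKM overlapped.

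The remaining cell death proteins, 5 features, also stayed below the threshold in both directions. Programmed cell death protein 5 (TCONS_00003565), a small protein tied to apoptosis in human cells, had 29.1 and 20.5 FPKM in BaCl2 heads, against 19.4 and 17.3 FPKM in control heads, a log2 fold of 0.39 (SE 0.28). Programmed cell death protein 10 (TCONS_00005578), which in mammals forms complexes with Ste20-type kinases, had 18.9 and 20.9 FPKM in BaCl2 heads, against 21.2 and 23.2 FPKM in control heads. The first was higher in both BaCl2 libraries and the second lower in both, each with a 95% interval of the log2 fold that included 0.

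The apoptotic chromatin condensation inducer in the nucleus (TCONS_00007001), or acinus, an RNA-processing protein cut by caspases in mammalian cells, had 13.9 and 21.5 FPKM in BaCl2 heads, against 15.0 and 18.3 FPKM in control heads. Cell division cycle and apoptosis regulator protein 1, a transcriptional coactivator in mammals, was the most deeply counted of all 48, with 15358 fragments on its longer feature (TCONS_00007371, 2601 nt). That feature had 49.6 and 70.7 FPKM in BaCl2 heads, against 62.9 and 60.7 FPKM in control heads. In both proteins the BaCl2 libraries lay on either side of the control libraries. A shorter feature of the same name on another contig (TCONS_00009234) had 55.0 and 73.4 FPKM in BaCl2 heads, against 48 and 50.7 FPKM in control heads, a log2 fold of 0.36 (SE 0.28).

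The TRAF adaptors made up 4 features, and 1 of the 3 tested, the most abundant, was lower in both BaCl2 libraries. TNF receptor-associated factor-2-like protein B (TCONS_00001568, 738 nt) had 29.1 and 43.5 FPKM in BaCl2 heads, against 65.2 and 68.8 FPKM in control heads. The group means were 36.3 ± 10.2 FPKM in BaCl2 heads and 67.0 ± 2.52 FPKM in control heads (SD, n = 2 each). Its log2 fold of -0.90 (SE 0.30) had an unadjusted p of 0.0233 and an adjusted p of 0.202 (limma). Over omissions of 1 library the log2 fold ran from -1.18 to -0.61.

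TNF receptor-associated factor 4 (TCONS_00006751, 357 nt) had 23.2 and 14.2 FPKM in BaCl2 heads, against 11.7 and 16 FPKM in control heads. A second piece of the same name on that contig (TCONS_00006752) had 84 fragments and stood at 8.89 and 4.01 FPKM in BaCl2 heads, against 3.27 and 4.96 FPKM in control heads. In both pieces BaCl2 replicate 1 was the highest library and the other 3 interleaved. TRAF-5 (TCONS_00003297, 416 nt) had 9.50 and 4.35 FPKM in BaCl2 heads, against 5.83 and 5.82 FPKM in control heads, so the control libraries lay between the BaCl2 libraries. Summed over the 4 TRAF features the level was 115 and 114 CPM in BaCl2 heads, against 147 and 172 in control heads, and the TRAF-2-like feature supplied most of it in every library.

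None of the 3 features named for TNF itself passed the test. Tumor necrosis factor alpha-induced protein 8 (TCONS_00003302), a regulator of cell survival in mammals, had 18.3 and 17.1 FPKM in BaCl2 heads, against 11.0 and 12.7 FPKM in control heads. Its groups did not overlap, and the log2 fold of 0.55 (SE 0.25) had an adjusted p of 0.294 (limma). The lipopolysaccharide-induced TNF-alpha factor homolog (TCONS_00001902), a protein of late endosomes and lysosomes in mammals, had 78.3 and 128 FPKM in BaCl2 heads, against 102 and 93.0 FPKM in control heads. Complement C1q tumor necrosis factor (TCONS_00002582), named for a family of secreted proteins, had 7.37 and 12 FPKM in BaCl2 heads, against 12.1 and 10.6 FPKM in control heads. For these 2 proteins the libraries of the groups overlapped.

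TNF receptor-associated protein 1 (TCONS_00006891, 2031 nt) shares its name with the TRAF adaptors but is a chaperone of the mitochondrion. It had 11.5 and 14.4 FPKM in BaCl2 heads, against 20.3 and 17.6 FPKM in control heads. Both BaCl2 libraries were lower, and the log2 fold of -0.52 (SE 0.26) did not pass (limma adjusted p 0.326).

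**Figure D3:**
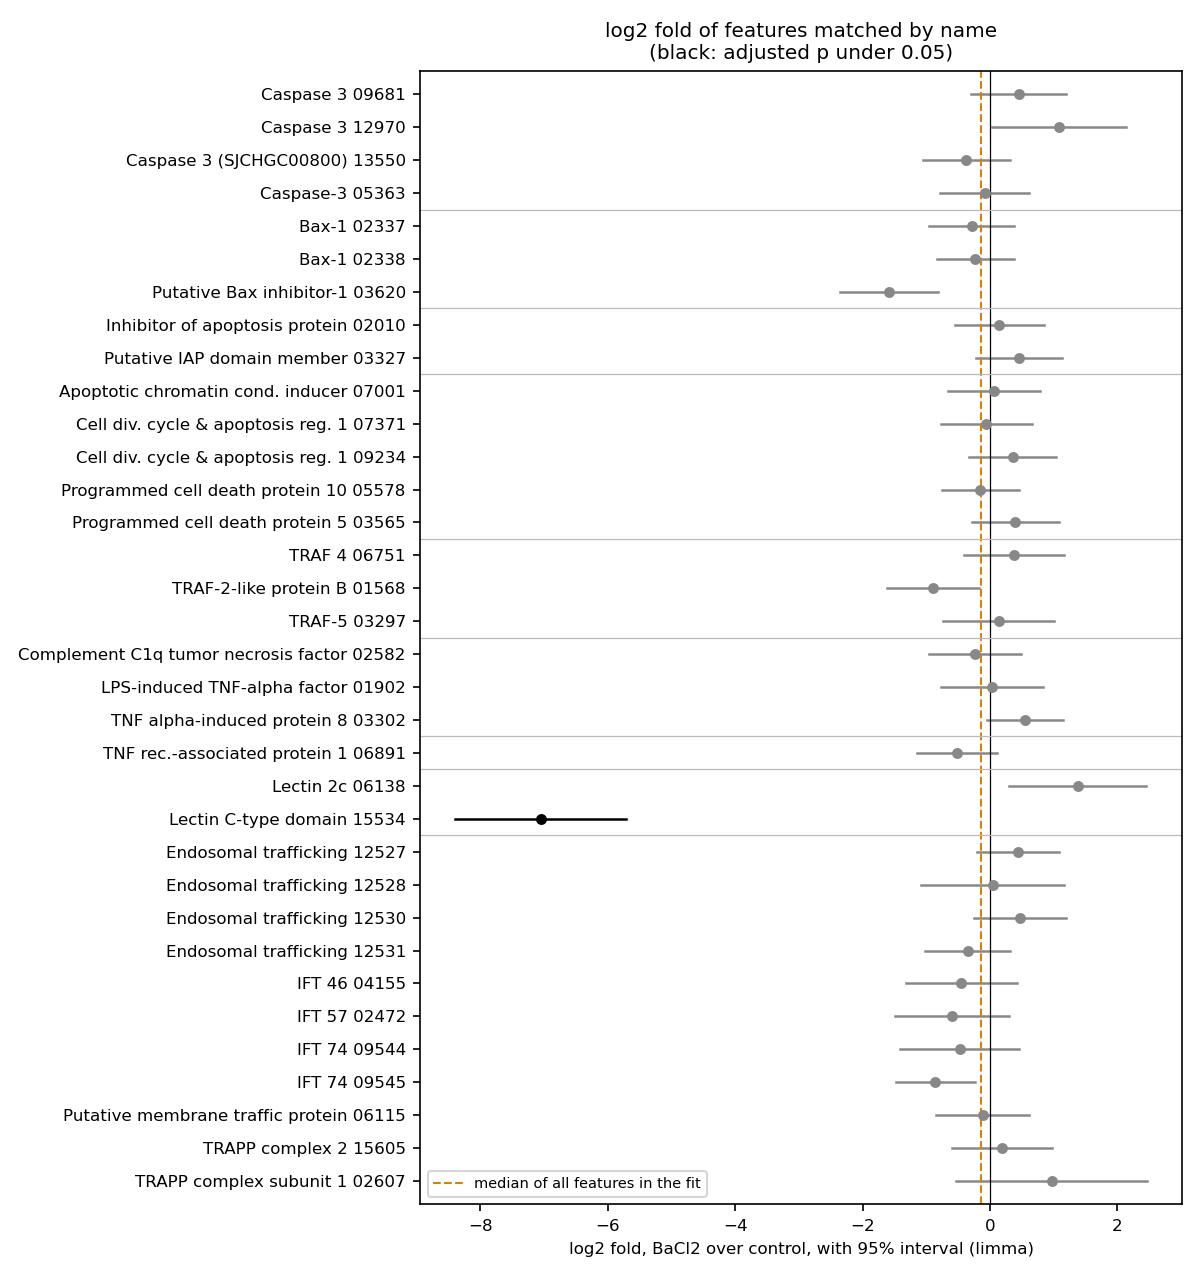
Points give the log2 fold of BaCl2 over control for the 34 tested features, with 95% intervals from limma, grouped by role. The point in black is the C-type lectin at -7.06, the only feature past an adjusted p of 0.05, and the dashed line marks the median of all 7981 features at -0.15.

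Replicate spread limited these comparisons more in BaCl2 heads than in control heads. Over the 34 features the BaCl2 libraries differed by a median of 0.50 on the log2(FPKM + 1) scale, and the control libraries by 0.20, beside 0.42 and 0.20 over all 7981 features. BaCl2 replicate 2 was the higher library of its group for 21 of the 34, or 61.8%, close to the 62.2% among all features. Without 1 library the number of the 34 past the threshold ran from 1 to 5. It was 5 without BaCl2 replicate 2, where 1017 of the 7981 features were called, and 3 without BaCl2 replicate 1, where 249 were. With 2 libraries against 2, an exact permutation test of a single feature cannot give a two-sided p below 0.333.

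**Figure D4:**
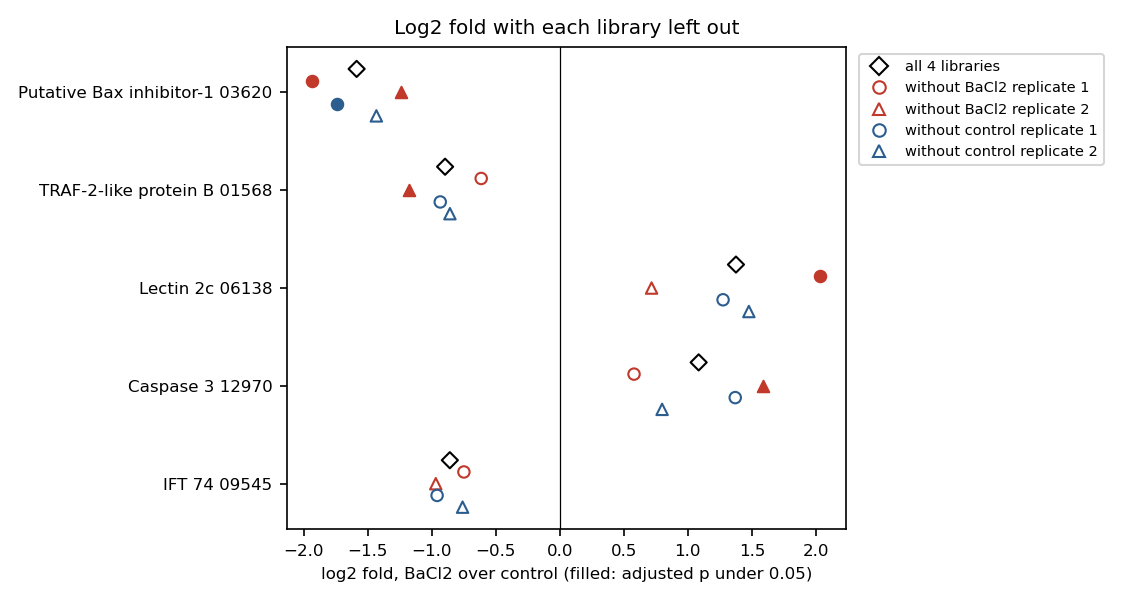
The horizontal axis gives the log2 fold of BaCl2 over control for the 5 tested features other than the C-type lectin with an unadjusted p under 0.05, with all 4 libraries (diamonds) and without each library in turn. Filled symbols mark an adjusted p under 0.05 in limma. The groups of these 5 features do not overlap, so no omission of a library could move a symbol across 0. Which symbols are filled changes with the library left out.

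Other proteins of the same pathways, found by a separate list of protein names, showed no call either. The list held 41 features that are not among the 48, and 31 had enough fragments. None passed an adjusted p of 0.05 in limma, and none passed under the alternatives run for this fit. At an unadjusted p under 0.05 there were 2 of the 31, beside 18.8% of all features. Both were higher in each BaCl2 library. They were Calpain 5 (TCONS_00005680), with a log2 fold of 0.65 (SE 0.25), and a mitogen-activated protein kinase (TCONS_00001873), with 0.71 (SE 0.29). Of the 31 folds, 10 were above and 21 below 0, with a median of -0.28, and 14 were above and 17 below with median-ratio rescaling. Over all 7981 features, 3118 were above and 4863 below, and 4043 and 3938 with that rescaling. Both BaCl2 libraries lay below both control libraries in 13 of the 31 and above them in 5, beside 36.3% and 19.1% of all features. In the apoptosome and DNA damage sublist all 5 tested features, Apaf1 and poly [ADP-ribose] polymerases, lay below. Their folds were below 0 in every scaling run. Over all 8 features of that sublist 6 lay below and 1 above, the latter Death domain-containing protein 1 on 22 fragments.

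In that sublist a poly [ADP-ribose] polymerase (TCONS_00010888), an enzyme that marks DNA breaks, had 21.0 and 25.0 FPKM in BaCl2 heads, against 28.1 and 27.9 FPKM in control heads. A polymerase of the tankyrase type (TCONS_00001531) had 34.9 and 50.7 FPKM in BaCl2 heads, against 56.8 and 64.3 FPKM in control heads. Apaf1 (TCONS_00007858), the scaffold on which caspases are activated in mammals, had 122 and 153 FPKM in BaCl2 heads, against 212 and 183 FPKM in control heads, a log2 fold of -0.52 (SE 0.30, limma adjusted p 0.371). Apaf1 is named here for its place in the pathway, after its values were seen. In these 3 features the groups did not overlap, and the 95% intervals of the log2 folds included 0.

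The sublist searched for NF-kappaB, Toll and complement names held 3 features, none of them named for NF-kappaB. Its complement component 1 Q subcomponent binding protein (TCONS_00001900) had 162 and 179 FPKM in BaCl2 heads, against 191 and 169 FPKM in control heads. A TIR domain feature (TCONS_00013811), with the signalling domain of Toll-type receptors, had 9.79 and 8.60 FPKM in BaCl2 heads, against 11.0 and 12.3 FPKM in control heads. A second TIR domain feature (TCONS_00013810) had 41.7 and 60.4 FPKM in BaCl2 heads, against 57.8 and 86.2 FPKM in control heads. Only TCONS_00013811 kept the groups apart, with BaCl2 below control.

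Among stress kinases, a dual specificity mitogen-activated protein kinase kinase 6 (TCONS_00006222), which switches on p38-type kinases in mammals, had 48.7 and 69.7 FPKM in BaCl2 heads, against 81.6 and 81.6 FPKM in control heads. A mitogen-activated protein kinase (TCONS_00006107) had 9.15 and 14.2 FPKM in BaCl2 heads, against 16.2 and 23.0 FPKM in control heads. Both were lower in each BaCl2 library, with log2 folds of -0.48 (SE 0.30) and -0.71 (SE 0.32), while 5 of the 9 tested features of this sublist had folds above 0.

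For autophagy, the pathway by which cells digest their own contents, 4 of 8 tested folds were above 0. Autophagy-related protein 3 (TCONS_00005081), which helps attach a ubiquitin-like tag to lipid, had 48.9 and 73.6 FPKM in BaCl2 heads, against 95.2 and 85.2 FPKM in control heads. Autophagy-related protein 7 (TCONS_00010880), the enzyme that activates those tags, had 12.6 and 16 FPKM in BaCl2 heads, against 20.2 and 15.6 FPKM in control heads. Of the proteases, cathepsin D (TCONS_00003157), a lysosomal enzyme, had 59.1 and 69.7 FPKM in BaCl2 heads, against 93.6 and 85.5 FPKM in control heads. Calpain-B (TCONS_00007019), a protease activated by calcium, had 12.6 and 15.8 FPKM in BaCl2 heads, against 14.4 and 15.7 FPKM in control heads. Autophagy-related protein 3 and cathepsin D kept the groups apart with BaCl2 below control, and the other 2 overlapped. Over the 8 tested autophagy features, both BaCl2 libraries lay above both control libraries in 2 and below them in 1. Over the 6 tested calpain and cathepsin D features they lay above in 1 and below in 3. Among all features, 19.1% lay above and 36.3% below.

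The 18 transport features have no tie to TRAF beyond their letters. They comprised 5 of intraflagellar transport, 8 pieces of a putative endosomal trafficking protein on 1 contig, 2 pieces of a putative membrane traffic protein and 3 features of the trafficking protein particle (TRAPP) complex, which tethers vesicles. Of these, 11 were tested and none passed in limma, with 5 folds above and 6 below 0.

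Intraflagellar transport proteins move cargo along cilia, and all 4 tested features had folds below 0 in every scaling run. On the deposited scale these ran from -0.86 to -0.45 in the limma fit of log2(FPKM + 1). In that fit 4863 of all 7981 features had folds below 0. Intraflagellar transport protein 74 (TCONS_00009545, 987 nt) had 3.41 and 4.13 FPKM in BaCl2 heads, against 7.05 and 8.24 FPKM in control heads. Its groups did not overlap, and the log2 fold of -0.86 (SE 0.26) had an adjusted p of 0.167 (limma). A shorter feature of that name on the same contig (TCONS_00009544) had 2.16 and 4.61 FPKM in BaCl2 heads, against 3.61 and 6.41 FPKM in control heads.

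Intraflagellar transport protein 46 (TCONS_00004155) had 37.1 and 68.7 FPKM in BaCl2 heads, against 64.1 and 74.8 FPKM in control heads. Intraflagellar transport protein 57 (TCONS_00002472) had 10.8 and 21.4 FPKM in BaCl2 heads, against 20.6 and 27.0 FPKM in control heads. In these BaCl2 replicate 1 was the lowest library and BaCl2 replicate 2 lay within the control range. A list of 35 features was found by the names tektin, radial spoke, axonemal and dynein, and none was at 0 in all 4 libraries. It summed to 4556 and 6122 CPM in BaCl2 heads, against 5450 and 6447 in control heads. Of its 23 tested features, 18 had folds below 0 and 2 were called lower, beside 4863 and 98 of all 7981 features. The part of this list in the intraflagellar transport values was not tested.

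The deepest endosomal trafficking piece (TCONS_00012531, 1514 nt) had 20.8 and 28.6 FPKM in BaCl2 heads, against 32.7 and 30.2 FPKM in control heads. Its log2 fold was -0.35 (SE 0.28), whereas the other tested pieces of that contig were above 0. TCONS_00012530 had 12.2 and 8.58 FPKM in BaCl2 heads, against 8.47 and 5.88 FPKM in control heads. TCONS_00012527 had 3.25 and 4.03 FPKM in BaCl2 heads, against 2.50 and 2.33 FPKM in control heads. TCONS_00012528 had 2.15 and 6.47 FPKM in BaCl2 heads, against 2.74 and 4.91 FPKM in control heads. These pieces share a contig and a name, so they are not separate measurements of the protein, and their intervals all include 0.

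The TRAPP complex subunit 1 feature (TCONS_00002607, 253 nt) had 48.9 and 12 FPKM in BaCl2 heads, against 15.6 and 9.20 FPKM in control heads. Its log2 fold of 0.97 (SE 0.62) rested on BaCl2 replicate 1. The fold was 1.94 without BaCl2 replicate 2 and 0.0047 without BaCl2 replicate 1. TRAPP complex 2 (TCONS_00015605) had 29.8 and 17.2 FPKM in BaCl2 heads, against 19.6 and 19.9 FPKM in control heads, and the tested membrane traffic piece (TCONS_00006115) had 7.71 and 6.96 FPKM in BaCl2 heads, against 10.3 and 6.19 FPKM in control heads. In both the groups overlapped. The 7 transport features below 100 fragments had 17 to 95 fragments and are not ordered further.

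**Figure D5:**
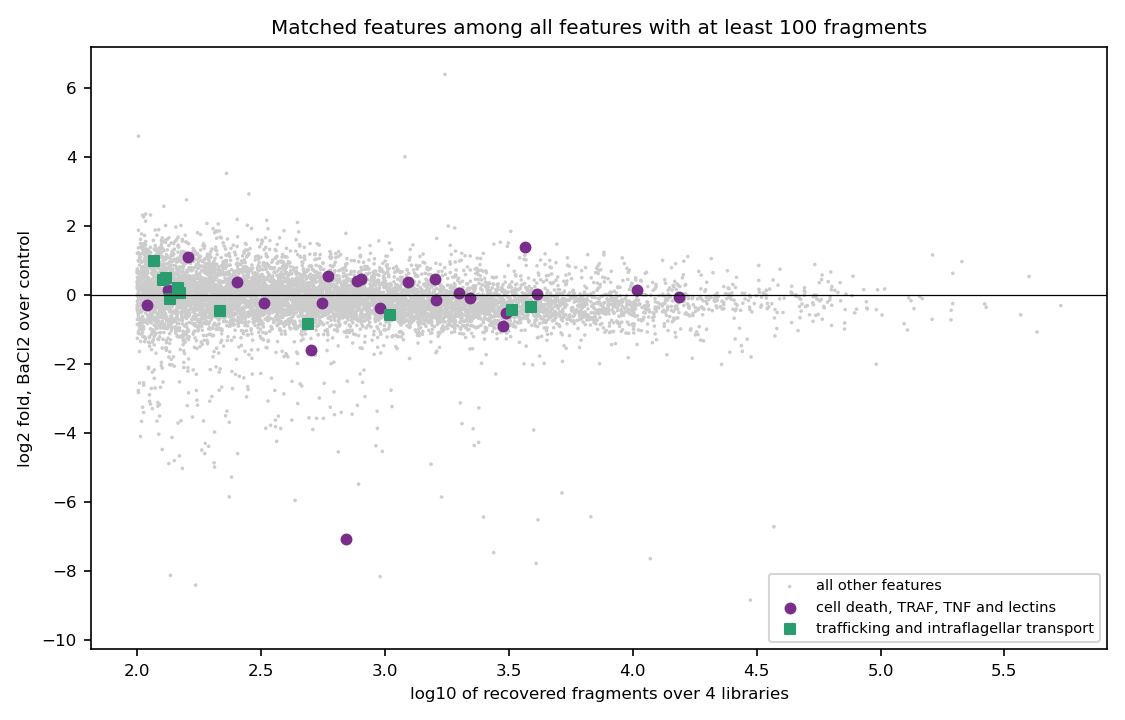
The horizontal axis gives the log10 of recovered fragments over the 4 libraries and the vertical axis the log2 fold of BaCl2 over control, for all 7981 features (grey), the 23 tested features named for cell death, TRAF, TNF or lectins (purple) and the 11 transport features (green squares). All but 1 of the coloured points lie between -1.59 and 1.38, and the C-type lectin lies at -7.06 among the lowest 9 features.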

How the data were processed

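Poly(A) RNA-seq of whole planarian heads was compared between BaCl2 worms (2 libraries) and control worms (2 libraries). Bowtie, TopHat2 2.0.13, Cufflinks 2.2.1 and Cuffdiff are listed, per the submitters' processing notes; no source used here names the assembly. The values are FPKM, as deposited by the authors in 1 table per replicate number and 1 pooled table. The pooled table also holds the authors' log2 fold changes, p-values and q-values, which are quoted only where named. The pooled FPKM equalled a weighted sum of the replicate tables for 15203 of 15204 features, and those weights put the 4 libraries on one scale. Fragments were recovered from the FPKM steps with an assumed fragment length of 200 ± 80 nt, cut at 28 and 440 nt, and 99.7 to 99.8% of checked values came out whole within 0.1 fragments.

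Log2(FPKM + 1) was fitted with limma 3.58.1 (R 4.3.3, mean trend, two-sided, no block, 2 residual degrees of freedom) over the 7981 features that averaged 1 FPKM or more and had at least 100 fragments. The fit was also run on simulated data with the same spread in every library. The larger spread between the BaCl2 libraries was not simulated, so that run does not test its effect on the calls. A feature was called at a Benjamini-Hochberg adjusted p under 0.05. A fold on this scale understates the change of low features. Alternatives changed the pseudocount, filters, scaling, block, libraries and tool. Per-library values are given for each matched feature in the fit, and for the 2 features with most fragments in each sublist of the pathway list. The features, lists and tests were chosen with earlier results of these data known.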

Additional observations from a re-analysis of the deposited data

How the results depend on the processing

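Of the 34 tested features, the number called was 1, beside 114 of all 7981 features. It was 0 with a pseudocount of 0.1 (53 of 7981 features), 2 with a minimum of 300 fragments (174 of 5177) and 2 with voom on the deposited scale (204 of 7981). Over omissions of 1 library it ran from 1 to 5, beside 224 to 1017 of 7981. The labels give both groups the numbers 1 and 2 but do not say that a number marks a shared culture, and deviations of same-numbered libraries correlated at 0.145 over 7981 features, in 2 pairs. With the replicate number as a block the number called was 4, beside 948 of 7981 features in all. In the fit of all expressed features the number was 0, with 6 at an unadjusted p under 0.05, and 3 with voom on either scale, beside 323 of 15530 features on library totals and 467 on the deposited scale. The median log2 fold of the tested features, -0.01, was -0.15 with a minimum of 300 fragments, 0.13 with median-ratio rescaling and 0.15 with voom on library totals, and ran from -0.23 to 0.0244 over omissions of 1 library. Those scalings moved the median of all features by 0.15 and 0.18, so under them the tested features kept about the same distance to it. With a minimum of 300 fragments the median of all features was -0.21. Without BaCl2 replicate 2 it was -0.23, the same as that of the tested features. Of 478 folds of single features under the alternatives, 443 kept their direction and side of the threshold, 12 passed only there, 1 did not pass there and 22 changed sign, none of them called. With median-ratio rescaling and with voom on library totals the log2 fold was 0.0806 and 0.14 for Caspase-3 (TCONS_00005363), 0.0087 and 0.0439 for Programmed cell death protein 10, 0.0354 and 0.0819 for the membrane traffic protein (TCONS_00006115) and 0.10 and 0.16 for Cell division cycle and apoptosis regulator protein 1 (TCONS_00007371). Voom on library totals gave 0.0229 for Complement C1q tumor necrosis factor. Over omissions of 1 library the log2 fold ran from -0.32 to 0.39 for the lipopolysaccharide-induced factor, from -0.56 to 0.0827 for Complement C1q tumor necrosis factor, from -0.35 to 0.62 for TRAF-5, from -0.31 to 0.15 for Caspase-3 (TCONS_00005363), from -0.44 to 0.21 for the membrane traffic protein, from -0.23 to 0.36 for the chromatin condensation inducer, from -0.31 to 0.19 for Cell division cycle and apoptosis regulator protein 1 (TCONS_00007371), from -0.58 to 0.67 for the endosomal piece TCONS_00012528 and from -0.19 to 0.57 for TRAPP complex 2. The causes were not tested. Leaving out the 18 transport features, an alternative chosen after seeing the data, left the call of the C-type lectin as the only one among 23. Summing features of the same name gave no value for names with several features. An omission leaves 1 library in a group, which is assumed to vary like the other group.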

Other observations

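Markers of the other tissues of the head, found by protein name, gave the following sums in CPM, fragments per 1000000 fragments of the library. That scale sets BaCl2 heads higher, relative to control heads, than the FPKM scale does. The 14 muscle features summed to 13865 and 14600 CPM in BaCl2 heads, against 9084 and 8495 in control heads, with no feature called in limma, 2 at an unadjusted p under 0.05 and 8 of 14 folds above 0. The 30 neuronal features summed to 502 and 473 CPM in BaCl2 heads, against 242 and 336 in control heads, with 11 of 14 tested folds above 0 and none called. Folds above 0 were found in 3118 of all 7981 features. The 9 neoblast features, names of planarian stem cell and replication proteins, summed to 1037 and 873 CPM in BaCl2 heads, against 1122 and 1064 in control heads. The 42 features of intestine and phagocytes summed to 4230 and 4394 CPM in BaCl2 heads, against 3914 and 3900 in control heads, and the 4 of mucous glands to 35.6 and 48.3 against 39.0 and 38.3. The eye list, searched by the names opsin, tyrosinase and arrestin, held 1 feature, which had fewer than the 100 fragments needed for the test. It stood at 3.53 and 1.16 CPM in BaCl2 heads, against 0.847 and 1.08 in control heads. The part of these tissues in the values of cell death and lectin features was not tested.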
